A study of Homo sapiens with 48 samples.

Results

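The 8 genes described here code for the RCAN regulators of calcineurin (RCAN1, RCAN2, RCAN3), the 4 calcium-regulated NFAT transcription factors (NFATC1, NFATC2, NFATC3, NFATC4) and their relative NFAT5. They were chosen by name, as genes around calcineurin and NFAT, and not by a limit on their values. Earlier results of these data were known when they were chosen. All 8 were found among the 60610 genes listed in the count table, and all 8 were among the 19626 genes with enough counts to be tested.

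The cells were HEK293, a human embryonic kidney line, of 1 clone that stably expresses the human angiotensin II receptor AT1R. In serum-free medium they received 1 nM angiotensin II (AII), 10 µg/L epidermal growth factor (EGF), both (AII + EGF) or no stimulus (control), each over 6 h or 24 h. Every group, controls included, carried the AT1R transgene, and the clone had been selected with puromycin and the AT1R blocker losartan. Poly(A) RNA was sequenced, and the values are fragment counts per gene, given here as CPM (counts divided by the TMM-scaled library size in M).

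AT1R couples to Gq, and Gq acts through phospholipase C and inositol trisphosphate to release calcium from the endoplasmic reticulum. Calcium and calmodulin activate the phosphatase calcineurin, which dephosphorylates the NFATc proteins so that they enter the nucleus, while kinases of the DYRK, GSK3 and CK1 families send them back. RCAN proteins bind calcineurin and restrain it. A short RCAN1 transcript that starts inside the gene is known to be driven by NFAT and is used as a readout of calcineurin activity. NFAT5 lacks the calcineurin docking region and is known for the response to high osmolality, above all in the kidney.

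The labels give 6 libraries to each group, 48 in all, of which 38 were used: 4 control, 5 AII, 3 EGF and 4 AII + EGF libraries at 6 h, and 6 control, 5 AII, 5 EGF and 6 AII + EGF libraries at 24 h. Their depth was 22.3 ± 3.02 M counts (SD, n = 38) and ranged between 17.8 and 29.96 M. Left out were 8 libraries that form 4 pairs with fewer differences than random sampling of reads gives (chi-square per degree of freedom 0.397 to 0.505, against 2.02 for the closest of the other pairs). In 3 of these pairs the partners carry labels of different groups. Left out as well were 2 libraries whose profile went against their label. On a scale from the AII 6 h libraries (0) to the AII + EGF 6 h libraries (1), these were the library labelled AII 6 h replicate 6, at 0.851, and the library labelled AII + EGF 6 h replicate 6, at −0.0051. The HEK293 neurofilament gene NEFM was abundant, with a log2 change of 1.32 ± 0.239 (SE) under AII + EGF at 6 h, and the T-cell and endothelial genes CD3E and PECAM1 had 0 CPM in control cells at 6 h. AGTR1, the gene of the transfected receptor, itself had a log2 change of 1.23 ± 0.175 (adjusted p = 4.93e-07) under AII + EGF at 6 h. EGFR, the receptor of EGF, rose as well, from 19.2 ± 2.86 CPM (SD, n = 4) in control to 32.3 ± 3.01 CPM (SD, n = 3) under EGF and 46.9 ± 2.45 CPM (SD, n = 4) under AII + EGF at 6 h (log2 changes 0.75 ± 0.138 and 1.29 ± 0.13, adjusted p = 0.000253 and 3.49e-10). The part of either receptor's level in the results was not tested. In bulk RNA, fewer cells that express a gene and less RNA per cell cannot be told apart.

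RefSeq promoter windows (GRCh38.p14, from 250 bases before to 50 bases after a transcript start, read on the gene's own strand) were given for 7 of the 8 genes, 20 windows in all, with none for NFAT5. They were searched on both strands for the NFAT core GGAAA (its reverse complement on the other strand), the AP-1 element TGANTCA, the cyclic AMP element TGACGTCA and the EGR element GCGNGGGCG. The 4 windows below are shown because they belong to the 3 genes that were higher under AII + EGF, and because the starts of 1 gene differ. Capitals mark every match. The first RCAN1 window lies at 1 of the internal starts of the gene and the second at its outermost start. The first RCAN1 window and the NFATC1 and NFATC2 windows are those with most matches in each gene.

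RCAN1, internal start, chr21:34526773-34527072, minus strand: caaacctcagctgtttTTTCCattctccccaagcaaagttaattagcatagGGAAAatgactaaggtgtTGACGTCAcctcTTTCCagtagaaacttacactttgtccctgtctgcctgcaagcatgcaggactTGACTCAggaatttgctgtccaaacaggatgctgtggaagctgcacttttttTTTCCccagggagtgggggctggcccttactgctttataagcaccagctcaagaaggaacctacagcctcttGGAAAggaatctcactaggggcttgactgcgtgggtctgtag
RCAN1, outermost start, chr21:34615064-34615363, minus strand: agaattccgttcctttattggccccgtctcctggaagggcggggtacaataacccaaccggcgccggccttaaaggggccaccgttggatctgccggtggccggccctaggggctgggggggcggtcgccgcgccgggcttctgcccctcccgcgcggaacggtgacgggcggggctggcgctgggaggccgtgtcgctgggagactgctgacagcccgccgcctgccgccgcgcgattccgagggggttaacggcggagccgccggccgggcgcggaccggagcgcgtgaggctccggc
NFATC2, chr20:51562790-51563089, minus strand: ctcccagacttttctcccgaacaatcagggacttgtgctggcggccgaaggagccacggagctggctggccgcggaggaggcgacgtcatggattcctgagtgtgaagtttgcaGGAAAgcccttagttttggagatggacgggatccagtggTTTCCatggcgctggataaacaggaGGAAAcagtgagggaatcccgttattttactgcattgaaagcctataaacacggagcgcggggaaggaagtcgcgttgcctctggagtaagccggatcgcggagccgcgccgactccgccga
NFATC1, chr18:79400049-79400348, plus strand: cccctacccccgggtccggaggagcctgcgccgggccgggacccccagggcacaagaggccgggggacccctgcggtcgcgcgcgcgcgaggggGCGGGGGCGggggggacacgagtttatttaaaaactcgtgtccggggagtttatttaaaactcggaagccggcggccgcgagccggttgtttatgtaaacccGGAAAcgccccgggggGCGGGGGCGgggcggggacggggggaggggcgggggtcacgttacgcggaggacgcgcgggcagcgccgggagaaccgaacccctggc

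The internal RCAN1 window shown above held 5 NFAT cores, 1 AP-1 element and 1 cyclic AMP element, with no overlap between them. Among all 35116 windows of this length, 61.2% held at least 1 NFAT core, 9.94% at least 3 and 0.74% at least 5. The AP-1 element was held by 7.71% and the cyclic AMP element by 1.85%. These shares are for a window taken at random. The internal RCAN1 window was the richest of the 6 of its gene, so the shares overstate how rare it is. The outermost RCAN1 window held no match, and the other 4 RCAN1 windows held at most 1 NFAT core each, 1 of them with an AP-1 element as well. The NFATC2 window held 3 NFAT cores. The NFATC1 window held 1 NFAT core and 2 EGR elements, and 1.59% of all windows held at least 2 EGR elements. The genes that were not higher held matches too. Each RCAN3 window held 1 NFAT core, 1 of them with an EGR and 1 with an AP-1 element. An RCAN2 window held 2 NFAT cores and another 1 AP-1 element, and an NFATC4 window held 1 NFAT core. The NFATC3 window held no match. A match is a run of letters and no measure of binding, and the counts per gene do not say which start was used.

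In control cells at 6 h, RCAN1 had the highest level of the 8 genes per kilobase of exon, with 7.68 ± 0.582 CPM per kb (SD, n = 4). NFATC4 followed with 5.35, NFATC3 with 3.37, RCAN3 with 3.26, NFAT5 with 2.03, NFATC1 with 1.74, RCAN2 with 0.656 and NFATC2 with 0.039 CPM per kb. The levels of NFATC3 and RCAN3 differed by less than their spread. At 24 h NFATC4 came first in control cells with 11.5 CPM per kb, ahead of RCAN1 with 6.72 CPM per kb, and NFATC2 was again lowest with 0.0815 CPM per kb. All lengths are unions of annotated exons, so they do not follow the isoforms that the cells used.

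The first question was which of these genes each stimulus changed at 6 h. A gene was called when it passed 3 limits in edgeR: an adjusted p below 0.01 (Benjamini-Hochberg), 1.5-fold or more between the groups, and over 5 CPM on average in the higher one. RCAN1 and NFATC1 rose under AII + EGF, so that 2 of the 8 genes were called, where 12% of all tested genes were. Without the abundance minimum NFATC2 passed as well, where 16.5% of all genes were. Under AII alone none of the 8 was called (0.469% of all genes). At an unadjusted p under 0.05 were 3 of the 8, where 2367 of all 19626 genes were. Under EGF alone none was called (1.94% of all genes). An unadjusted p under 0.05 was found for 1 of the 8, the same NFATC2, where 3489 of all 19626 genes had one. NFATC2 passed without the abundance minimum (2.55% of all genes). DESeq2 also called 2, 0 and 0 of the 8 genes under AII + EGF, AII and EGF. Shares over all genes are those of edgeR throughout, and none is given for DESeq2.

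RCAN1, the calcineurin inhibitor with the internal start shown above (ENSG00000159200, chromosome 21, 34516442 to 34615113 on GRCh38.p14), was measured at 56.5, 53.2, 56.5 and 47.9 CPM in the 4 control libraries at 6 h. Under AII it was 56.6, 59.3, 62.2, 64.2 and 63.1 CPM, and under EGF 59.3, 58.2 and 65.6 CPM. Under AII + EGF it was 85.2, 80.7, 93 and 98.6 CPM. All 4 libraries with both stimuli lay above every other library used at 6 h, while the AII and EGF libraries overlapped each other and lay just above the controls. The mean rose from 53.5 ± 4.05 CPM (SD, n = 4) to 89.4 ± 7.97 CPM (SD, n = 4), a log2 change of 0.74 ± 0.106 (SE; 95% interval 0.53 to 0.95) or 1.67-fold (edgeR, adjusted p = 6.58e-07). The log2 changes under AII (0.19 ± 0.101, adjusted p = 0.46) and EGF (0.19 ± 0.114, adjusted p = 0.41) were not past the threshold. Within the 2 title runs that held both groups (libraries with neighbouring titles that cover each of the 4 treatments, with 1 or 2 libraries of each), the log2 ratio of AII + EGF to control was 0.76 and 0.8. Treatment and title run were not balanced among the libraries used at 6 h. Title run 1 kept AII and AII + EGF libraries but no control or EGF library, and title run 7 kept a control but no treated library. With all 48 libraries the log2 change of RCAN1 under AII + EGF was 0.68 (adjusted p = 2.41e-06).

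NFATC1, a transcription factor known for osteoclast and heart valve formation and for an inducible short isoform (ENSG00000131196, chromosome 18, 79395930 to 79529323), was measured at 17.3, 17.1, 14.9 and 13.6 CPM in control cells at 6 h. Under AII it was 21.3, 19.4, 22.1, 19.5 and 20.2 CPM, under EGF 17.6, 17.6 and 18.1 CPM, and under AII + EGF 26.6, 28.3, 22.3 and 26.1 CPM. The order was AII + EGF, AII, EGF, control, without overlap between the groups, though EGF and control differed by a log2 change of only 0.17 ± 0.145 (adjusted p = 0.594). Against control NFATC1 rose under AII + EGF by a log2 change of 0.71 ± 0.135 (SE; 95% interval 0.45 to 0.98), or 1.64-fold (adjusted p = 5.76e-05), and its log2 change under AII was 0.38 ± 0.129 (adjusted p = 0.14). Within the 2 title runs the log2 ratio of AII + EGF to control was 0.37 and 0.81. The call of NFATC1 rests on the libraries used. Its log2 change was 0.45 with all 48 libraries (adjusted p = 0.00601) and 0.58 when the near-identical pairs alone were left out (adjusted p = 0.00346), both under the 1.5-fold minimum.

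NFATC2, the NFAT factor best known from T cells (ENSG00000101096, chromosome 20, 51386963 to 51562839), was near the limit of detection, with 3 to 12 counts per control library at 6 h and 45 to 57 per AII + EGF library. Its CPM were 0.16, 0.547, 0.323 and 0.263 in control cells, 0.947, 0.752, 0.793, 0.606 and 0.48 under AII, 1.38, 1.1 and 1.26 under EGF, and 2.78, 2.89, 2.67 and 2.32 under AII + EGF. The AII libraries overlapped the controls in 1 library, and the EGF and the AII + EGF libraries each lay above all libraries of the groups below them. The log2 change was 3.01 ± 0.306 (SE; adjusted p = 3.55e-10) under AII + EGF, 1.92 ± 0.332 (adjusted p = 9.72e-05) under EGF and 1.1 ± 0.328 (adjusted p = 0.0666) under AII. The mean of 2.67 ± 0.246 CPM (SD, n = 4) under AII + EGF stayed below the abundance minimum, so NFATC2 was not called. Within the 2 title runs the log2 ratio of AII + EGF to control was 2.92 and 2.84.

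**Figure D1:**
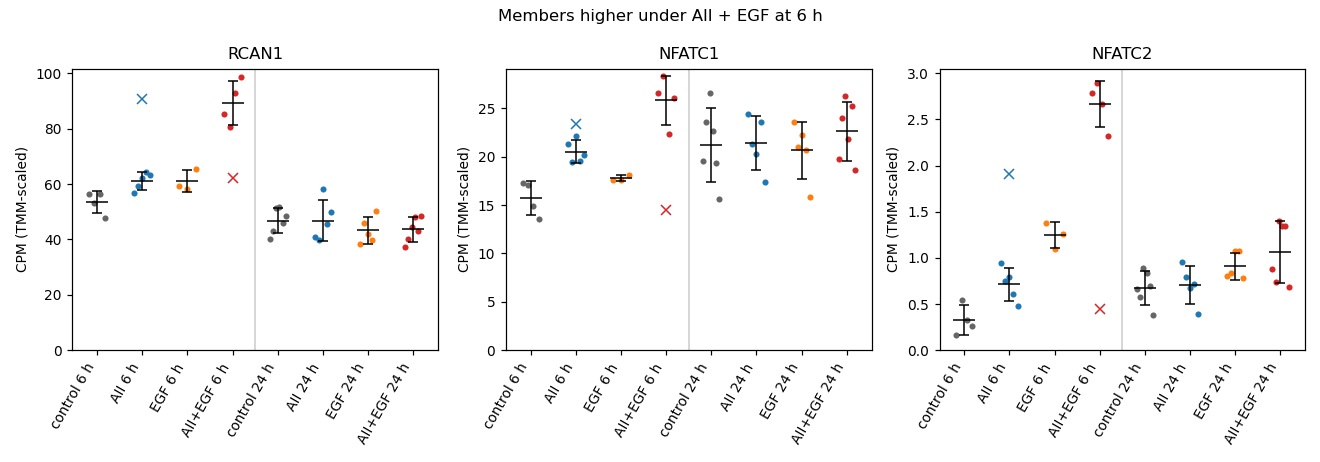
CPM (TMM-scaled, y axis from 0) of RCAN1, NFATC1 and NFATC2 in each of the 38 libraries (points) of the 8 groups (x axis), with mean and SD (black), and the 2 libraries whose labels are in doubt (crosses). The 4 AII + EGF libraries at 6 h are the highest for RCAN1 (80.7 to 98.6 CPM) and NFATC2 (2.32 to 2.89 CPM), and the groups lie close together at 24 h.

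RCAN2 and RCAN3, the other RCAN genes, were not called. RCAN3 (ENSG00000117602, chromosome 1, 24502344 to 24541040) was 23.9, 24.7, 26.9 and 17.4 CPM in control cells at 6 h and 15.9, 18.4, 20.6 and 21 CPM under AII + EGF, and these groups overlapped. Its log2 change under AII + EGF was −0.29 ± 0.115 (adjusted p = 0.0469). RCAN2 (ENSG00000172348, chromosome 6, 46220736 to 46491970), a gene of low level, was 2.5, 2.78, 2.69 and 1.97 CPM in control cells and 0.732, 2.73, 0.535 and 2.12 CPM under AII + EGF. The AII + EGF libraries split into 2 low and 2 near the controls, and the log2 change was −0.70 ± 0.283 (adjusted p = 0.0523). Under AII alone RCAN2 was 1.58, 1.72, 1.53, 1.97 and 1.68 CPM, at or below the lowest control. Its log2 change under AII was −0.55 ± 0.263 (unadjusted p = 0.0438, adjusted p = 0.391 in edgeR), and −0.93 with all 48 libraries (adjusted p = 0.0224).

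The remaining NFAT genes had no change past the threshold at 6 h. NFATC3 (ENSG00000072736, chromosome 16, 68085370 to 68229259), an NFAT factor of lymphoid and muscle cells, had a mean of 29.7 ± 5.76 CPM (SD, n = 4) in control cells and 27.7 ± 1.78 CPM (SD, n = 4) under AII + EGF. The 95% interval of its log2 change, −0.37 to 0.17, lay within the 1.5-fold limits. NFATC4 (ENSG00000100968, chromosome 14, 24366911 to 24379604), known from heart and brain, had 45.1 ± 14.1 CPM in control cells and 33.3 ± 6.21 CPM under AII + EGF (SD, n = 4 each), with a log2 change of −0.44 ± 0.219 (adjusted p = 0.125). NFAT5 (ENSG00000102908, chromosome 16, 69565966 to 69704654) had 41.1 ± 9.48 CPM and 56.4 ± 8.97 CPM (SD, n = 4 each), with a log2 change of 0.46 ± 0.255 (adjusted p = 0.177). Within the title runs that held both groups its log2 ratio was 0.5 and −0.03. The intervals of NFATC4 (−0.87 to −0.01) and NFAT5 (−0.04 to 0.95) reach past 1.5-fold, so changes of that size are not excluded.

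**Figure D2:**
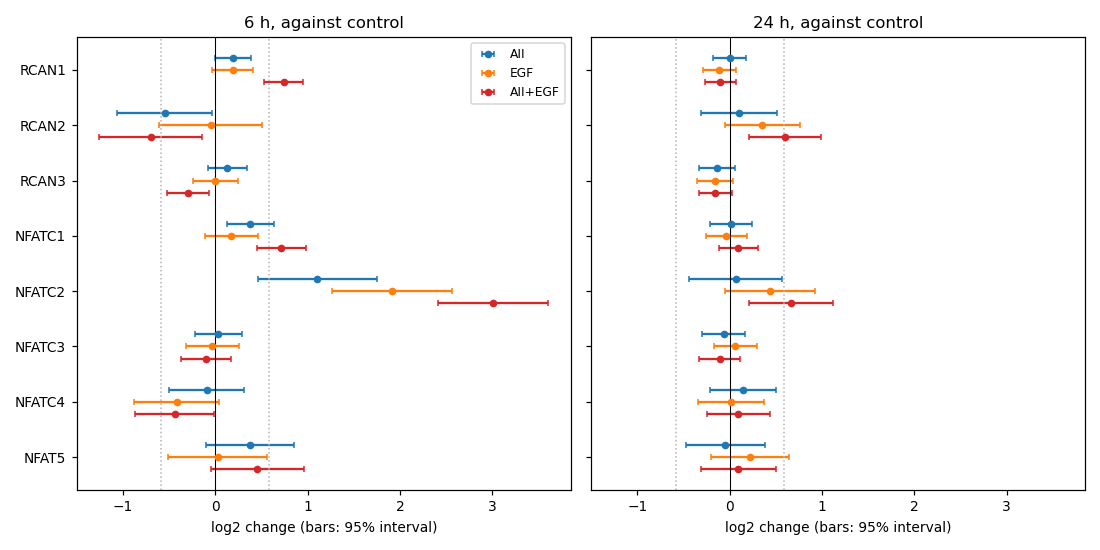
Log2 change against the control of the same time (x axis, with 95% intervals) for the 8 genes (y axis) under AII, EGF and AII + EGF at 6 h (left) and 24 h (right), with dotted lines at 1.5-fold. At 6 h RCAN1 (0.74), NFATC1 (0.71) and NFATC2 (3.01) lie to the right under AII + EGF, and at 24 h RCAN1 lies at −0.10.

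The next question was whether both stimuli together differed from each alone. Against EGF at 6 h none of the 8 genes was called (2.92% of all genes), and NFATC2 passed without the abundance minimum (3.77%). At an unadjusted p under 0.05 were 5 of the 8, where 4618 of all 19626 genes were. The log2 differences were 0.55 ± 0.115 for RCAN1 (1.46-fold, adjusted p = 0.00108), 0.54 ± 0.145 for NFATC1 (adjusted p = 0.0115) and 1.09 ± 0.276 for NFATC2 (adjusted p = 0.00677). RCAN1 thus missed the call by its fold alone, and it was called with title runs as a block (log2 difference 0.62, adjusted p = 1.93e-07). Against AII at 6 h none was called (7.6% of all genes), and NFATC2 passed without the abundance minimum (10.7% of all genes). At an unadjusted p under 0.05 were 4 of the 8, where 7128 of all 19626 genes were. The log2 differences from AII were 0.55 ± 0.1 for RCAN1 (adjusted p = 5.15e-05), 1.9 ± 0.256 for NFATC2 (adjusted p = 2.86e-07) and −0.42 ± 0.11 for RCAN3 (adjusted p = 0.00331, below the fold minimum). DESeq2 called 0 of the 8 genes in both comparisons. With all 48 libraries the RCAN1 difference was 0.39 from EGF (adjusted p = 0.0279) and 0.31 from AII (adjusted p = 0.0586). At 24 h none was called against EGF (0.0917% of all genes) or against AII (1.45%), and DESeq2 called 0 of the 8 in both. An unadjusted p under 0.05 was found for 0 of the 8 against EGF (2094 of all 19626 genes) and 2 against AII (4956).

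The interaction of the stimuli asks whether the joint log2 change exceeds the sum of the single log2 changes. At 6 h none of the 8 genes was called by edgeR (0.229% of all genes) or DESeq2. An unadjusted p under 0.05 was found for 2 of the 8 in edgeR, where 1916 of all 19626 genes had one. RCAN1 had an interaction of 0.36 ± 0.152 on the log2 scale (95% interval 0.06 to 0.66, adjusted p = 0.385), and RCAN3 one of −0.42 ± 0.164 (95% interval −0.75 to −0.10, adjusted p = 0.311). For NFATC2 the joint log2 change was close to the sum of the single ones (interaction −0.01 ± 0.43, adjusted p = 0.998), and for NFATC1 the interaction was 0.16 ± 0.192 (adjusted p = 0.888). The RCAN1 interaction was 0.42 (adjusted p = 0.0093) with title runs as a block, still under 1.5-fold, and 0.02 with all 48 libraries. At 24 h none was called by either tool (0% of all genes in edgeR). There 0 of the 8 had an unadjusted p under 0.05 (660 of all 19626 genes).

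At 24 h the rises of RCAN1 and NFATC1 were not seen. None of the 8 genes was called under AII (0% of all genes), EGF (0.245%) or AII + EGF (2.9%). At an unadjusted p under 0.05 were 0 of the 8 under AII and 0 under EGF (343 and 2876 of all 19626 genes). Under AII + EGF 2 of the 8 were at that limit (6293 of all genes). Of the 8 genes DESeq2 called 0 under AII, 0 under EGF and 1, RCAN2, under AII + EGF. RCAN1 was 40.3, 47.2 and 51.6 CPM (lowest, median and highest of 6) in control cells and 37.1, 43.9 and 48.5 CPM in AII + EGF cells, which overlapped. Its log2 change was −0.10 ± 0.087 (95% interval −0.27 to 0.07), an interval that excludes the change seen at 6 h. NFATC1 had medians of 21.1 and 22.9 CPM in these groups and a log2 change of 0.09 ± 0.108 (adjusted p = 0.603).

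RCAN2 and NFATC2 were the 2 genes with an unadjusted p under 0.05 under AII + EGF at 24 h. RCAN2 was 3.62, 4.33 and 6.07 CPM (lowest, median, highest of 6) in control cells and 5.14, 6.64 and 8.15 CPM under AII + EGF, so the groups overlapped in part. Its log2 change was 0.60 ± 0.199 (1.52-fold, adjusted p = 0.0287), and AII + EGF was higher than control within each of the 4 title runs at 24 h, by log2 ratios of 0.48 to 0.84. With title runs as a block the adjusted p was 0.00645, and with DESeq2 it was 0.00819, at which RCAN2 was called. NFATC2 had a log2 change of 0.66 ± 0.233 (adjusted p = 0.0393) at 0.675 ± 0.183 CPM in control cells (SD, n = 6).

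The responses at both times were then compared directly. The AII + EGF response differed between 24 h and 6 h for RCAN1, NFATC1 and RCAN2, so 3 of the 8 genes were called, where 11.6% of all genes were. With only the groups compared in the fit this count was 1 (RCAN1), as RCAN2 (adjusted p = 0.0183) and NFATC1 (adjusted p = 0.0279) were no longer past the threshold. The response was lower at 24 h by a log2 difference of −0.84 ± 0.137 for RCAN1 (adjusted p = 1.25e-05) and −0.62 ± 0.173 for NFATC1 (adjusted p = 0.00636). For NFATC1 the control mean was 15.8 CPM at 6 h and 21.2 CPM at 24 h, and the AII + EGF mean 25.8 and 22.6 CPM. Its difference thus includes one between the controls, where time and title run cannot be told apart. The AII + EGF response was higher at 24 h for RCAN2, by 1.3 ± 0.346 (adjusted p = 0.00424), which joins a log2 change of −0.70 at 6 h with one of 0.60 at 24 h. RCAN2 passed the abundance minimum only through its AII + EGF libraries at 24 h, with a mean of 6.8 CPM. The other groups compared had means of 1.53 to 4.48 CPM, so its place in the count is a description. NFATC2 passed without the abundance minimum, by −2.35 ± 0.39 (adjusted p = 1.47e-05), where 13.9% of all genes did. Leaving out single libraries kept the call of RCAN1 in 20 of 20 fits, of RCAN2 in 17 and of NFATC1 in 9. RCAN2 lost its call without AII + EGF 6 h replicate 1 (adjusted p = 0.0188), without AII + EGF 6 h replicate 3 (adjusted p = 0.0167) and without control 6 h replicate 4 (adjusted p = 0.0114). The NFATC1 difference lost its call without any 1 of 11 libraries (AII + EGF 6 h replicates 1, 2 and 5, control 6 h replicates 5 and 6, control 24 h replicates 2, 3 and 4, and AII + EGF 24 h replicates 1, 4 and 6), with adjusted p of 0.0103 to 0.0265, and had an adjusted p of 0.161 with all 48 libraries. With title runs as a block it was −0.51, under the 1.5-fold minimum. For none of the 8 genes did the AII response (0.138% of all genes) or the EGF response (1.03%) differ between the times. This held in edgeR and DESeq2. An unadjusted p under 0.05 was found in edgeR for 2 of the 8 in each, where 1574 and 3003 of all 19626 genes had one.

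Between the controls, 24 h against 6 h, NFATC4 was the gene called (1 of 8, where 6.73% of all genes were). NFATC4 was 38.7, 38.1, 37.5 and 66.2 CPM in the 4 controls at 6 h and 72.6, 97.3 and 126 CPM (lowest, median and highest of 6) at 24 h, without overlap. The log2 difference was 1.1 ± 0.203, or 2.14-fold (adjusted p = 8.8e-05), and 0.80 (adjusted p = 0.0107) with all 48 libraries, which ends the call. Each title run holds 1 time only, so time and run cannot be told apart here. Without the abundance minimum RCAN2 also passed (11.9% of all genes did), with a log2 difference of 0.85 ± 0.24 (adjusted p = 0.00594). NFATC1 was higher at 24 h by 0.43 ± 0.124 (adjusted p = 0.00741) and NFATC3 lower by −0.52 ± 0.124 (adjusted p = 0.0014) on the log2 scale, both below the fold minimum. NFATC3 is past that minimum without control 24 h replicate 4, control 24 h replicate 6 or control 6 h replicate 3 (−0.59, −0.59 and −0.60).

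**Figure D3:**
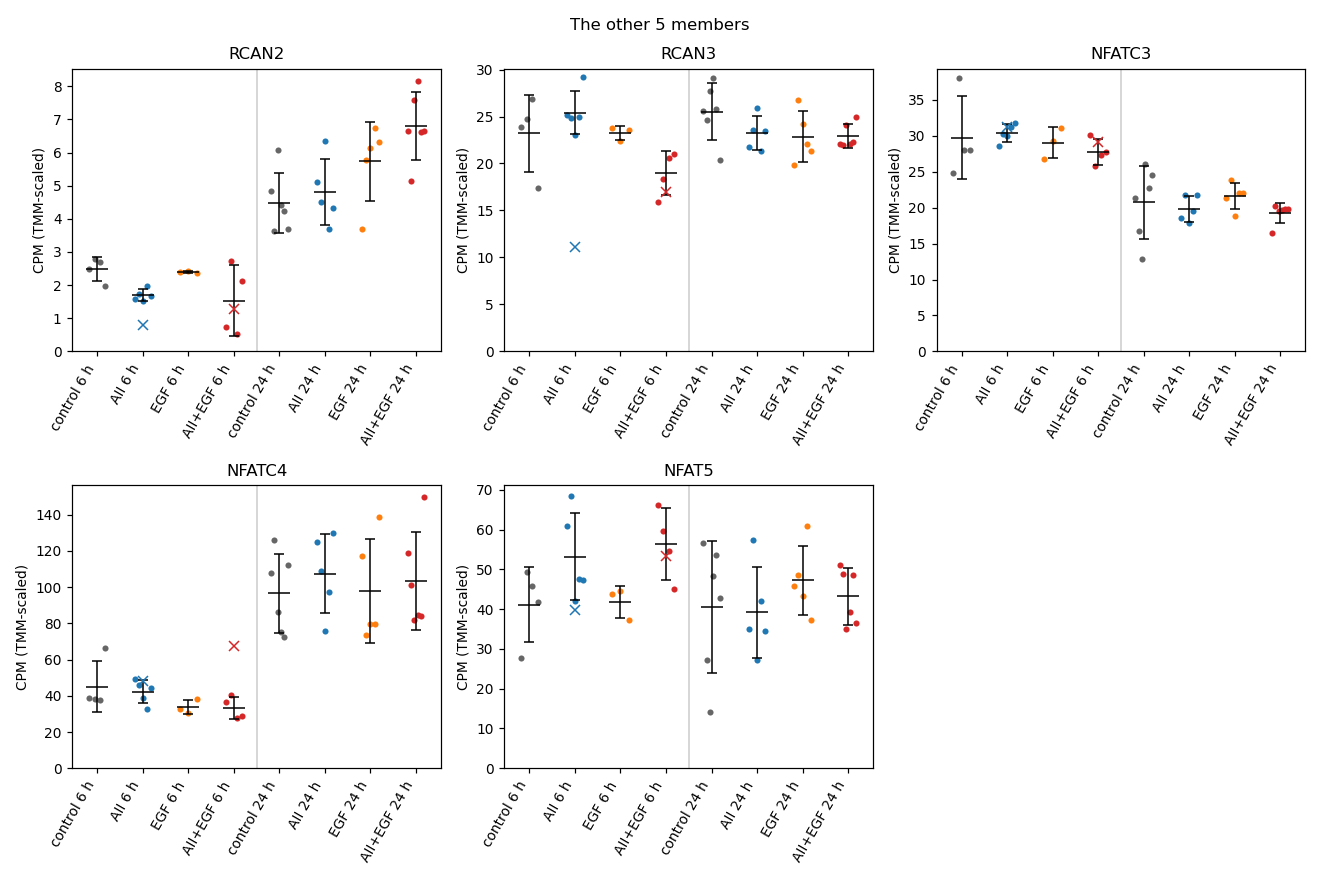
CPM (TMM-scaled, y axis from 0) of RCAN2, RCAN3, NFATC3, NFATC4 and NFAT5 in each of the 38 libraries (points) of the 8 groups (x axis), with mean and SD (black), and the 2 libraries whose labels are in doubt (crosses). NFATC4 lies between 72.6 and 126 CPM in the 24 h controls, above the 6 h controls, and RCAN2 reaches 8.15 CPM under AII + EGF at 24 h.

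Among the genes around these 8, the calcineurin subunit genes PPP3CB and PPP3CA changed in opposite directions under AII + EGF at 6 h. Of 12 listed calcineurin subunits and partners 11 were tested, and under AII + EGF at 6 h 1 was higher and 1 lower, where 12% of all genes were called (median log2 change 0.10, against −0.03 over all tested genes). None was called under AII or EGF. PPP3CB, a catalytic subunit, fell from 57.4 ± 4.61 CPM (SD, n = 4) to 21.5 ± 1.91 CPM (SD, n = 4), with ranges of 51.6 to 62.3 and 19.2 to 23.6 CPM. Its log2 change was −1.42 ± 0.087 (adjusted p = 1.25e-15). Its interaction of −0.88 ± 0.122 was called as well (adjusted p = 0.000124), where 0.229% of all genes were. With all 48 libraries no gene was called in the interaction at 6 h, so this call was lost. PPP3CA, the other widely expressed catalytic subunit, rose from 45.9 ± 3.28 CPM to 69.8 ± 2.49 CPM (SD, n = 4 each), a log2 change of 0.61 ± 0.092 (adjusted p = 2e-06). At 24 h PPP3CB was 48.2 ± 3.13 CPM in control and 46.5 ± 3.28 CPM in AII + EGF cells (SD, n = 6 each). With all 48 libraries PPP3CB had a log2 change of −0.99 (adjusted p = 3.76e-06) and PPP3CA one of 0.43 (adjusted p = 0.000465), below 1.5-fold.

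Of the 10 NFAT kinases, all tested, 1 was lower under AII + EGF at 6 h, where 12% of all genes were called, and none was called under AII or EGF. This was DYRK1B, a kinase known from muscle differentiation and quiescence, with a log2 change of −0.65 ± 0.148 (adjusted p = 0.000684), and −0.57 with all 48 libraries, which is below 1.5-fold. The median log2 change of the list was 0.10.

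Of the 21 genes of Gq, phospholipase C and the calcium stores, all tested, 3 were higher and 4 lower under AII + EGF at 6 h (12% of all genes called, median log2 change of the list −0.15), 1 was higher under EGF (1.94% of all genes) and none was called under AII (0.469% of all genes). The calcium exporter of the plasma membrane ATP2B1 rose from 95.3 ± 6.46 to 220 ± 18 CPM (log2 change 1.21 ± 0.158, adjusted p = 1.08e-07) and the store-operated channel gene ORAI2 from 37 ± 4.72 to 80.9 ± 5.28 CPM (log2 change 1.13 ± 0.103, adjusted p = 2.82e-11; SD, n = 4 each). ATP2A3, a calcium pump of the endoplasmic reticulum, fell from 10.4 ± 2.12 to 4.39 ± 0.628 CPM (log2 change −1.25 ± 0.213, adjusted p = 1.32e-05; SD, n = 4 each). PLCB2, a Gq-activated phospholipase C, fell by 1.03 on the log2 scale (adjusted p = 1.96e-05). ORAI2 was the gene called under EGF (0.70 ± 0.109, adjusted p = 2.21e-05). With all 48 libraries it was under 1.5-fold there (0.56), while ATP2A3 and ITPR1 were called lower.

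Of 13 genes known as NFATc targets, mostly cytokine genes of lymphoid cells, 5 had enough counts to be tested. A gene can pass that filter through the group in which it is high, so the count of 4 higher under AII + EGF at 6 h (12% of all genes called), 1 under EGF (1.94%) and 1 under AII (0.469%) is a description. EGR3, a zinc-finger factor of the early growth response family, was 1.6 ± 0.322 CPM in control, 3.19 ± 0.527 under AII, 13.3 ± 0.272 under EGF and 47.3 ± 1.63 under AII + EGF (SD, n = 4, 5, 3 and 4). Its log2 change under AII + EGF was 4.88 ± 0.265 (adjusted p = 5.12e-17). EGR2 of the same family had a log2 change of 3.88 ± 0.321 (adjusted p = 2.6e-12), and the nuclear receptor genes NR4A3 and NR4A1 had 2.01 ± 0.191 (adjusted p = 8.06e-11) and 1.73 ± 0.135 (adjusted p = 5.99e-13). NR4A1 was the gene called under AII (0.72 ± 0.129, adjusted p = 0.000605), a call lost with all 48 libraries (adjusted p = 0.0145). EGR and NR4A genes are also known targets of ERK and serum response factor signalling. None of the 5 was called at 24 h under any stimulus. EGR3 was 2.09 ± 0.438 CPM in control at 24 h (SD, n = 6). It was 4.72 ± 1.88 CPM under EGF and 4.99 ± 1.14 CPM under AII + EGF (SD, n = 5 and 6). EGR2 was 0.801, 1.49 and 1.58 CPM in these groups. These means lay below the 5 CPM minimum, so a rise of either gene could not be called at 24 h.

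Of 8 genes known as NFAT5 targets 6 were tested, and none was called at 6 h under any stimulus, where NFAT5 itself had no change past the threshold. At 24 h 2 were higher under AII + EGF (2.9% of all genes called, median log2 change of the list 0.38) and none under AII or EGF. The taurine transporter SLC6A6 rose from 48.6 ± 4.88 to 81.9 ± 12.3 CPM (log2 change 0.75 ± 0.108, adjusted p = 4.3e-06) and the calcium-binding protein gene S100A4 from 5.53 ± 2.29 to 13 ± 1.66 CPM (log2 change 1.23 ± 0.185, adjusted p = 8.59e-06; SD, n = 6 each). NFAT5 had a log2 change of 0.09 ± 0.207 in the same comparison (adjusted p = 0.804).

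**Figure D4:**
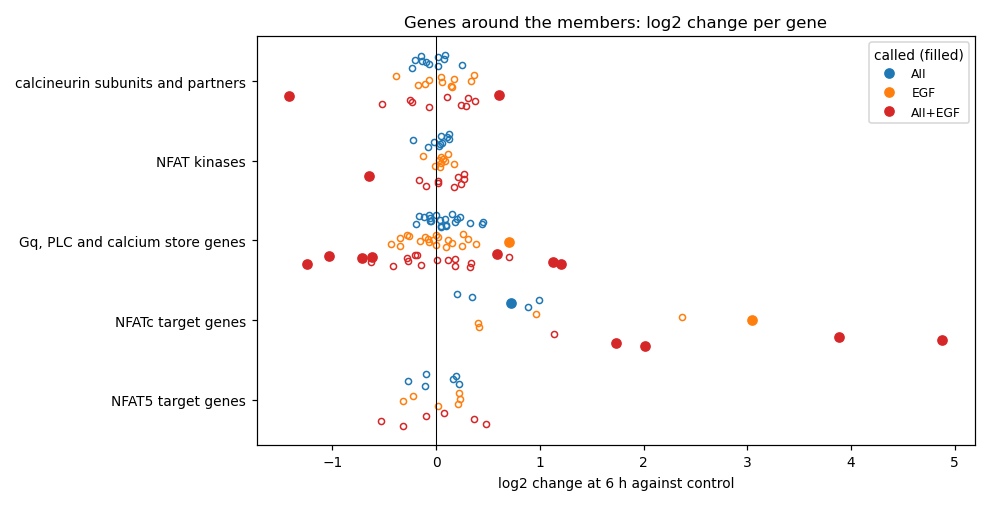
Log2 change at 6 h against control (x axis) for each tested gene of the 5 lists (y axis) under AII, EGF and AII + EGF, with filled points for called genes. Most genes lie near 0, PPP3CB lies at −1.42, and EGR2 and EGR3 lie at 3.88 and 4.88 under AII + EGF.

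The genes most like RCAN1 over the 38 libraries, by the correlation of log2 CPM, were SRPRB (Pearson's r = 0.96), MAPRE1 (0.95) and ODC1 (0.95). Those most like NFATC1 were ZNF853 (0.87), FBLIM1 (0.87) and TICAM1 (0.86). These values describe libraries that share groups and title runs, and the genes were picked for them from all genes above 5 CPM.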

How the data were processed

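Poly(A) RNA of the 48 libraries was sequenced as paired ends, mapped by the authors with HISAT2 2.1.0 to hg38 and assigned to Ensembl genes with featureCounts, and raw counts were deposited without normalisation. Strandedness and the treatment of multi-mapping reads are not given in the sources used here, so overlapping and paralogous genes are uncertain. Groups come from the labels, which do not say whether libraries of a group are separate cultures, so p-values measure the spread between these libraries. Replicate numbers follow the order of deposition and pair nothing.

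Counts of 38 libraries were fitted with edgeR 4.0.16 in R 4.3.3 (filterByExpr by group, TMM, 1 quasi-likelihood fit, no covariates) and adjusted over all 19626 tested genes. For interactions and differences between times the abundance minimum of 5 CPM applied to the highest group. The steps were tested on simulated data. The members, lists, tests and excluded libraries were chosen with earlier results of these data known. All 8 members are named. From each of 5 lists up to 4 called genes with the largest log2 change under AII + EGF at 6 h are named, further list genes only where a count turned on them. Genes most like a called member were taken by Pearson's r over log2(CPM + 0.5). Alternatives were DESeq2 1.42.0, RLE factors, library totals without factors, the study's low-count filter, no filter, other thresholds, only the groups compared, title runs as a block, other sets of libraries and each library left out. Exon lengths came from a GENCODE annotation lifted to GRCh37 and served only for levels per kilobase. Positions and promoters came from RefSeq on GRCh38.p14.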

Additional observations from a re-analysis of the deposited data

Results flagged for a closer look

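The AII + EGF response differed between 24 h and 6 h in the test of that difference for 4 genes. The log2 differences were −0.841 for RCAN1, 1.303 for RCAN2, −0.621 for NFATC1 and −2.345 for NFATC2. NFATC2 was below the abundance minimum. Among the groups compared, RCAN2 was above it only under AII + EGF at 24 h. With only the groups compared in the fit, the differences of RCAN2 (adjusted p = 0.0183) and NFATC1 (adjusted p = 0.0279) were not past the threshold.

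Of 56 groups of libraries searched for a library far from the others, 2 had one, and chance gives about 1 in 20. NFATC3 was low in AII + EGF 24 h replicate 1, at 16.5 CPM, and NFATC4 was high in control 6 h replicate 6, at 66.2 CPM.

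The 2 libraries left out for their labels both had RCAN1 levels above the control libraries at 6 h. The library labelled AII 6 h replicate 6 had 90.6 CPM of RCAN1, 23.4 CPM of NFATC1 and 1.91 CPM of NFATC2. The library labelled AII + EGF 6 h replicate 6 had 62.1 CPM of RCAN1, 14.5 CPM of NFATC1 and 0.451 CPM of NFATC2. For RCAN1 the former lay within the range of the AII + EGF libraries used and the latter within that of the AII libraries used. The latter's NFATC1 and NFATC2 levels lay within the control ranges and below every AII library used.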

How the results depend on the processing

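Of 393 counts of called members recomputed under the alternatives 370 stayed within 1.5 times. In most comparisons the count was 0 in the main fit and a 0 that stayed 0 is among the 370, so this says little about stability. Of 551 recomputed log2 changes 504 kept their status, 25 lost the call, 22 gained it and none reversed in sign. Only changes called in some setting, or with an adjusted p under 0.05, were among the 551, so a reversal was unlikely from the start. Outside them signs did reverse. The RCAN2 difference of AII + EGF from AII at 6 h was −0.155, and 0.019 with all 48 libraries. With all 48 libraries, and without the near-identical pairs only, the count under AII + EGF at 6 h was 1 (RCAN1). With all 48 libraries that of the control comparison between times was 0. All 48 libraries gave 1778 and 352 called genes in total in these 2 comparisons. Without the abundance minimum the count was 1 for EGF at 6 h (2.55% of all genes). It was also 1 at 6 h for AII + EGF against EGF (3.77%) and against AII (10.7%), and 2 for the controls (11.9%). Without the fold minimum it was 1 against EGF, 2 against AII and 3 for the controls. More of all genes pass when a limit is lifted, so these counts describe the setting and are no result about the members. For AII + EGF at 24 h it was 1 with an adjusted p under 0.05, with title runs as a block and with DESeq2. With title runs as a block it was also 1 against EGF at 6 h. With only the groups compared the AII + EGF response differed between times for 1 gene.

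Leaving out 1 library gave 0 to 1 genes for AII + EGF against EGF at 6 h (1 without AII + EGF 6 h replicate 2, AII + EGF 6 h replicate 3 or EGF 6 h replicate 5), 0 to 1 against AII at 6 h (1 without AII + EGF 6 h replicate 2), 1 to 2 for the controls (2 without control 24 h replicate 4, control 24 h replicate 6 or control 6 h replicate 3) and 1 to 3 for the AII + EGF response between times (1 without AII + EGF 6 h replicate 1). Where a threshold was lifted or a library left out, the alternative itself sets the change, and otherwise the cause was not tested. The title run block was not run for the controls between times, since each run holds 1 time. The list counts with all 48 libraries were chosen after seeing the data. Depth limits NFATC2 most, with 3 to 12 counts per control library at 6 h.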
